A study of Homo sapiens with 6 samples.

Results

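The RNA of the proteasome genes was compared between libraries of H2122, an established human line of lung adenocarcinoma, transfected for 48 hours with control shRNA (3 libraries) or with LYCAT shRNA (3 libraries). LYCAT is the former symbol of LCLAT1, which encodes an acyltransferase that remodels cardiolipin and other phospholipids. The question was how the RNA of core and regulatory particle subunits compares between the 2 groups. Members were chosen by symbol alone: PSMA to PSME or PSMG followed by a digit, without pseudogenes and without PSMB8, PSMB9 and PSMB10, the interferon-inducible subunits of the immunoproteasome. This gave 45 of the 23368 genes in the table. Of these, 44 belong to the proteasome, and the other, PSMC3IP, is named for a protein that binds PSMC3 and acts in meiotic recombination, so it was kept apart. The labels name 1 shRNA per group and give no sequence for it, so effects of losing LCLAT1 and other effects of the shRNA cannot be told apart. Nothing in the labels ties the 3 libraries of a group to separate cultures; the p-values below rest on the spread among them, which may be only technical.

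The proteasome degrades proteins tagged with ubiquitin. Its core particle is a barrel of outer alpha rings, which gate the entry, and inner beta rings, in which PSMB5, PSMB6 and PSMB7 carry the catalytic sites. The regulatory particle caps the barrel: its base holds a ring of ATPases (PSMC genes) that unfold substrates and the large scaffold subunits PSMD1 and PSMD2, and its lid removes ubiquitin through PSMD14. Other caps (PSME genes) open the gate without ATP, and dedicated chaperones (PSMG genes for the core, PSMD5, PSMD9 and PSMD10 for the base) guide assembly. In mammalian cells the transcription factor NFE2L1 raises many proteasome genes together when proteasome activity falls, through antioxidant response elements in their promoters, and cancer cells are known to depend on proteasome capacity.

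Promoter windows of 300 bases (250 before and 50 after an annotated start, RefSeq, GRCh38.p14) were searched for the antioxidant response element TGACNNNGC and for CCAAT, the letters bound by NF-Y, on both strands; a match of one may overlap a match of the other. Of the 44 genes 38 had a window, and the others, PSMA7 among them, had none in the table. The element was found for 14 of the 38 (36.8%), against 16.1% of all 27305 genes with a window, and CCAAT for 19 of the 38 (50%), against 39.7%. Among core genes 2 of 12 held the element (16.7%, near the share of all genes) and 8 held CCAAT (66.7%). Among regulatory particle genes 5 of 16 held the element (31.2%) and 8 held CCAAT (50%). The remaining genes with the element were activators or assembly chaperones: PSME1, PSME2, PSME4, PSMD5, PSMD9, PSMG1 and PSMG2. The windows below belong to the gene that rose most, the gene that fell most, and an ATPase and a lid gene that hold the element and did not pass the test; capitals mark the motif, read on either strand.
PSME3, chr17:42833147-42833446, plus strand: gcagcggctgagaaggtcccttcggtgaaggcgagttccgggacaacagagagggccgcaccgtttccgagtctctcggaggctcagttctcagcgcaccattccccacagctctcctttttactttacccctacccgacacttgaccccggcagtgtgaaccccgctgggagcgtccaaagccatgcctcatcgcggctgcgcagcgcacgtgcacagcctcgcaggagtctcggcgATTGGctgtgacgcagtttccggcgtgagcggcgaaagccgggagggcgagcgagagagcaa
PSMD10, chrX:108091493-108091792, minus strand: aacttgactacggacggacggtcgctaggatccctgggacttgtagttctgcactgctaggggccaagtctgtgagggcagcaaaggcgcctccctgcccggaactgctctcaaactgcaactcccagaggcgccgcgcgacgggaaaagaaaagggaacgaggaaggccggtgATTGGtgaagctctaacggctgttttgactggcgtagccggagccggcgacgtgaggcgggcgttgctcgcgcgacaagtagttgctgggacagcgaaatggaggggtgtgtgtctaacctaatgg
PSMC4, chr19:39970915-39971214, plus strand: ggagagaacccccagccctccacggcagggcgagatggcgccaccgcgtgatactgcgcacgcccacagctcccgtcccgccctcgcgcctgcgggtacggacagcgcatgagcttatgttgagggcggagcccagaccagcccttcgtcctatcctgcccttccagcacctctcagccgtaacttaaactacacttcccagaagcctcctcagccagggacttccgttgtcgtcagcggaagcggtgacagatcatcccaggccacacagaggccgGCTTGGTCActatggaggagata
PSMD12, chr17:67366528-67366827, minus strand: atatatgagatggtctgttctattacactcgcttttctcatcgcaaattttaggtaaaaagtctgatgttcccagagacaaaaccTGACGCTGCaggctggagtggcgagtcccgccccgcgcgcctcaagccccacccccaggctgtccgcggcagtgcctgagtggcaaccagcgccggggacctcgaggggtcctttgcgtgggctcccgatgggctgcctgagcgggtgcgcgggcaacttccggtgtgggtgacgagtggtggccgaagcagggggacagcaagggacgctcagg
The capitals in PSME3 and PSMD10 are CCAAT boxes and those in PSMC4 and PSMD12 are antioxidant response elements. Of the 14 genes with the element 0 passed edgeR's test and their median log2 fold change was -0.014; of the 22 tested genes with a window and no such match 4 passed and the median was -0.008. Over all tested genes 19.1% passed, so the 4 of 22 lie near that background. A match is a description of letters, not a measured binding site.

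Library totals were 4075367 to 4930079 counts for control shRNA and 3118946 to 4730453 for LYCAT shRNA, and 11097 genes were abundant enough to test. Levels are in CPM, the usual depth-normalised count, with TMM-scaled library sizes. LCLAT1, the target, fell from 61.1 ± 4.23 to 21.7 ± 2.45 CPM (SD, n = 3 each), a log2 fold change of -1.499 (SE 0.114, edgeR quasi-likelihood test, adjusted p = 1.15e-18). By an exact permutation test, two-sided, p was 0.1, which is the lowest value possible with 3 libraries in each group. The 6 epithelial markers summed to 1607 to 1697 CPM in the controls and 1431 to 1498 with LYCAT shRNA, and KRT8, KRT18, KRT7 and CDH1 among them fell while EPCAM stood at 616 to 661 CPM with overlapping groups. Of 8 endothelial and blood markers 5 were at 0 in every library. Fibroblast markers summed to 30.8 to 128.5 CPM in the controls and 18.7 to 37.0 with LYCAT shRNA, with control libraries 1 and 2 highest. Among them COL1A1 stood at 59.4, 82.7 and 28.3 CPM in the controls and at 25.9, 16.45 and 22.9 CPM with LYCAT shRNA. It did not pass (log2 -1.37, edgeR adjusted p = 0.158). COL1A2 and COL3A1 had log2 fold changes of -1.72 and -2.31 with overlapping groups and did not pass, and DCN was at 0 in 5 of 6 libraries. In bulk RNA, fewer cells of a type and less RNA per cell cannot be told apart. The part of these markers in the results below was not tested, and counts without control libraries 1 and 2 are given.

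Most proteasome genes differed little between the groups. Of the 44 genes, PSMA8, a testis form, and PSMB11, a thymus form, had a count of 0 in every library, and 42 were tested. PSMD2, PSME3 and PSMG4 rose and PSMA7 and PSMD10 fell (edgeR adjusted p under 0.05), so 5 of 42 (11.9%) changed, where 19.1% of all tested genes did; in single directions 3 rose, where 9.81% of all genes did, and 2 fell, where 9.26% did. At an unadjusted p under 0.05 the count was 13 of 42 (31.0%), against 30.8% of all genes. The median log2 fold change of the 42 was -0.008 and that of all tested genes -0.006, and the median size without sign was 0.066 against 0.157. Their median SE was 0.060, against 0.120 over all genes. Among the 3353 tested genes with a control mean of at least 63.7 CPM, the level of the lowest tested member, PSMB3, 28.7% changed and the median size was 0.109. Libraries of the groups separated fully for 11 of the 42 (26.2%), against 32.8% of all genes.

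For the 37 tested members that did not pass, the log2 fold changes ran from -0.19 to 0.14. The 95% interval lay wholly between -0.32 and 0.32 on the log2 scale for 35 of them, and reached below that range for PSMD12 and PSMG2. These intervals bound the size of any change in RNA; they do not show that the levels were equal. The number of calls depended on which libraries were used. Without control replicate 2, 12 of 42 members passed, 6 higher and 6 lower (28.6%, where 20.1% of all genes passed in that fit). Control replicate 2 was the highest or the lowest control for 35 of the 42 members, against 26 and 23 for control replicates 1 and 3. Within the LYCAT shRNA group the same count was 32 for replicate 3 and 26 for replicates 1 and 2. It was not made over all tested genes. Without control replicate 1, 5 passed (11.9%, where 14.5% of all genes did). Without control replicate 3 or any 1 LYCAT shRNA library, 3 or 4 passed (7.14% to 9.52%), where 13.0% to 15.2% of all genes did. PSMD2, PSME3 and PSMD10 passed in every alternative run. Without control libraries 1 and 2, 6 of 42 passed (14.3%, where 10.2% of all genes did).

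**Figure D1:**
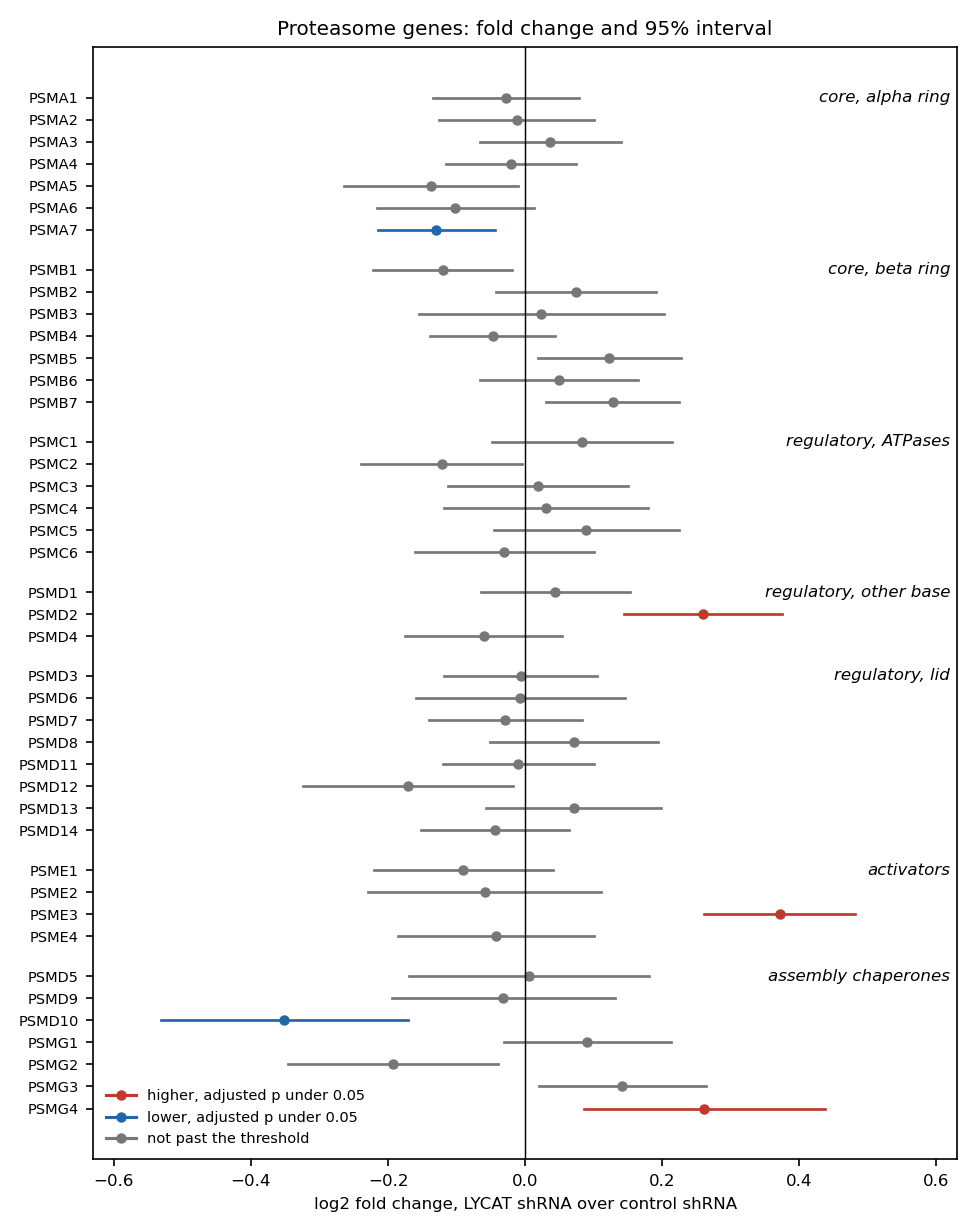
Log2 fold change of LYCAT shRNA over control shRNA for the 42 tested proteasome genes, by role; points are edgeR estimates, bars are 95% intervals, red marks genes that rose and blue genes that fell at an adjusted p under 0.05. Only PSMD2, PSME3, PSMG4, PSMA7 and PSMD10 are coloured, and the grey points lie between -0.19 and 0.14.

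In the alpha ring 1 of 7 tested genes fell (14.3%, where 19.1% of all tested genes changed). The other 6 did not pass, and the median log2 fold change of the 7 was -0.028. PSMA7, an alpha subunit of the constitutive ring, was counted at 1081, 1128 and 1144 CPM in the control libraries and at 1023, 1014 and 1027 CPM with LYCAT shRNA. The groups did not overlap, and every LYCAT shRNA library lay below every control. The mean went from 1118 ± 32.4 to 1021 ± 6.39 CPM (SD, n = 3 each), a log2 fold change of -0.13 (SE 0.0427, edgeR adjusted p = 0.0224). This small fall did not pass when the third control or any single LYCAT shRNA library was left out (edgeR adjusted p = 0.0702 to 0.0997). PSMA5 had the largest change among alpha genes that did not pass. It stood at 170.2, 157.9 and 168 CPM without and 157.8, 145 and 147 CPM with LYCAT shRNA. Its groups did not overlap, by the narrow gap between control replicate 2 and LYCAT shRNA replicate 1 (log2 -0.14, SE 0.0637, edgeR adjusted p = 0.124, and 0.0475 without control replicate 2). Of 15 alternative runs PSMA5 passed in 1. PSMA6 also did not overlap between groups (log2 -0.10). PSMA1, PSMA2, PSMA3 and PSMA4 overlapped between the groups and lay between -0.03 and 0.04 on the log2 scale; PSMA2 shares exon positions with MRPL32 on the other strand, and the sources used here do not state if reads were counted by strand.

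In the beta ring 0 of 7 tested genes passed with edgeR, and DESeq2 called 0. The unadjusted edgeR p was under 0.05 for 3 of them (42.9%), against 30.8% of all genes. Scaling by DESeq2's size factors added PSMB7 and scaling by library totals added PSMB1. PSMB7, the subunit with trypsin-like activity, stood at 417, 428.5 and 419.6 CPM in the controls and at 471, 456 and 455 CPM with LYCAT shRNA. All 3 LYCAT shRNA libraries were above all 3 controls (log2 0.13, SE 0.0485, edgeR adjusted p = 0.0528). PSMB5, with chymotrypsin-like activity and the site that bortezomib binds, stood at 308, 333 and 313.5 CPM without and 343, 336 and 359.6 CPM with LYCAT shRNA. Its groups also did not overlap, by the small gap between control replicate 2 and LYCAT shRNA replicate 2 (log2 0.12, SE 0.0522, edgeR adjusted p = 0.0895). Without control replicate 2 both passed in edgeR, PSMB7 at log2 0.14 (adjusted p = 0.0198) and PSMB5 at log2 0.16 (adjusted p = 0.0144). Neither passed when any other single library was left out. With offsets for GC content and length the edgeR adjusted p was 0.162 for PSMB7 and 0.182 for PSMB5. PSMB6, with caspase-like activity, stood at 213, 225 and 206 CPM without and 223, 214 and 228 CPM with LYCAT shRNA, with overlapping groups (log2 0.05, SE 0.0580, edgeR adjusted p = 0.615). So for the 3 catalytic genes the upper ends of the 95% intervals were 0.22, 0.23 and 0.16 on the log2 scale for PSMB7, PSMB5 and PSMB6. Of the structural beta genes, PSMB1 stood at 626.5, 541.5 and 655 CPM without and 553, 550.2 and 572 CPM with LYCAT shRNA. Its control replicate 2 lay below all the LYCAT shRNA libraries and the other controls above them (log2 -0.12, edgeR adjusted p = 0.0874, and 0.000166 with a log2 fold change of -0.20 without that library). PSMB2, PSMB3 and PSMB4 lay between -0.05 and 0.07, and PSMB4 alone of these had groups that did not overlap. The immunoproteasome genes PSMB8, PSMB9 and PSMB10, which are not members, stood at 36.0 to 37.9, 13.1 to 17.7 and 63.7 to 70.4 CPM in the controls and at 35.2 to 36.4, 11.3 to 14.7 and 66.1 to 79.3 CPM with LYCAT shRNA, and their log2 fold changes of -0.03, -0.26 and 0.11 did not pass edgeR's test.

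**Figure D2:**
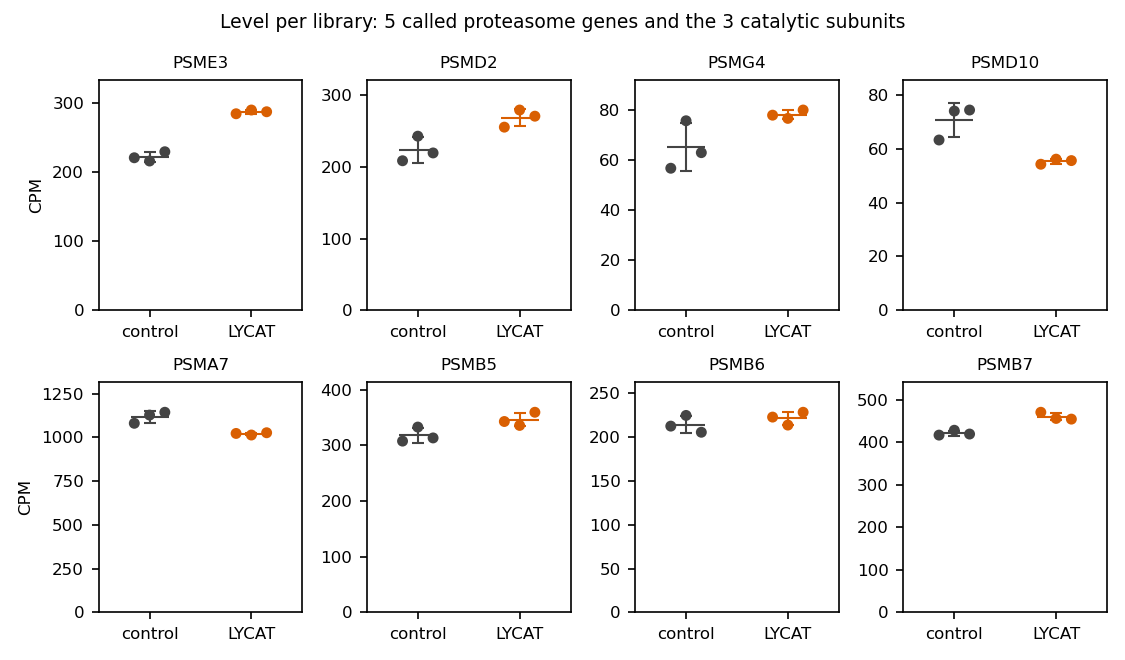
CPM in each library for the 5 proteasome genes that passed the test and for the 3 catalytic subunits, with the mean and SD of each group (n = 3; y axes start at 0). For PSME3, PSMD2, PSMG4, PSMD10 and PSMA7 the groups do not overlap; for PSMB6 they overlap, with all values between 206 and 228 CPM.

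By the symbol rule the regulatory particle had 17 integral subunits, all tested, of which 1 rose and 16 did not pass, with a median log2 fold change of -0.006. The change was in the base. PSMD2, the scaffold subunit of the base that receives ubiquitin shuttle proteins, stood at 208.5, 243 and 219 CPM in the controls and at 255, 279 and 271 CPM with LYCAT shRNA. The highest control, replicate 2, lay below the lowest LYCAT shRNA library. The mean rose from 224 ± 17.5 to 268 ± 12.1 CPM (SD, n = 3 each; log2 0.26, SE 0.0579, edgeR adjusted p = 0.000472). PSMD4, a ubiquitin receptor, was at 232, 255 and 228 CPM without and 229.7, 220.3 and 235 CPM with LYCAT shRNA (log2 -0.06, SE 0.0575, edgeR adjusted p = 0.520), and PSMD1, the other large scaffold, had a log2 fold change of 0.04. None of these base values other than PSMD2 separated the groups.

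Among the 6 ATPase genes 0 passed with edgeR, and DESeq2 called 0. The unadjusted edgeR p was under 0.05 for 1 of them (16.7%, against 30.8% of all genes). PSMC2 had the largest difference: 234.5, 227 and 259 CPM in the controls and 215, 209 and 236 CPM with LYCAT shRNA (log2 -0.12, SE 0.0590, edgeR adjusted p = 0.144). Its groups overlapped, and it passed without control replicate 2 (edgeR adjusted p = 0.0339). With offsets for GC content and length the edgeR adjusted p of PSMC2 was 0.332. PSMC1, PSMC3, PSMC4, PSMC5 and PSMC6 lay between -0.03 and 0.09 on the log2 scale, with overlapping groups in each. PSMC1 has 13 pseudogenes named after it in GENCODE v29, so its count is uncertain where reads match several copies. The same limit holds for PSMA6 (4 such pseudogenes), PSMA2 (3) and PSME2 (2). It also holds for PSMA3, PSMB3, PSMB7, PSMD4, PSMD7, PSMD8 and PSMD12, with 1 each. PSMC5 shares exon positions with FTSJ3 on the other strand.

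Of the 8 lid genes taken by the symbol rule 0 passed with edgeR, and DESeq2 called 0. The unadjusted edgeR p was under 0.05 for 1 of them (12.5%, against 30.8% of all genes). PSMD12, a scaffold subunit of the lid, stood at 95.8, 115 and 110.1 CPM in the controls and at 98.45, 85.1 and 99.7 CPM with LYCAT shRNA. Control replicate 1 lay within the range of the LYCAT shRNA libraries (log2 -0.17, SE 0.0771, edgeR adjusted p = 0.113). Without that library the edgeR adjusted p was 0.0322, the only 1 of 15 alternative runs in which PSMD12 passed. PSMD14, the metalloprotease that cuts ubiquitin chains from substrates, stood at 274, 262 and 272 CPM without and 257, 264 and 263 CPM with LYCAT shRNA. These values overlapped narrowly (log2 -0.04, edgeR adjusted p = 0.638). PSMD11, a lid subunit that is known to promote assembly of the 26S form, had a log2 fold change of -0.01, and PSMD3, PSMD6, PSMD7, PSMD8 and PSMD13 lay between -0.03 and 0.07.

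Core and regulatory particle are set side by side as a description. The core median was -0.017 and the regulatory median -0.006 on the log2 scale, beside -0.006 for all tested genes, and 1 of 14 core genes (7.14%) and 1 of 17 regulatory genes (5.88%) changed, where 19.1% of all tested genes did. Full separation of the groups was seen for 6 of 14 core genes (42.9%) and for 1 of 17 regulatory genes (5.88%), where 32.8% of all tested genes separated. The core count includes PSMA5 and PSMB5, whose groups were only narrowly apart. These counts stand beside a median SE of 0.053 for core and 0.062 for regulatory genes. Summed CPM of the core was 5415, 5477 and 5564 in the controls and 5389, 5302 and 5404 with LYCAT shRNA. For the regulatory particle it was 3176, 3332 and 3253, and 3256, 3228 and 3361. The ratio of the sums was 1.71, 1.64 and 1.71 in the controls and 1.66, 1.64 and 1.61 with LYCAT shRNA, with overlapping groups. No test was made of these sums, because they are scores over members that were chosen with results known.

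Within the particles, the alpha over beta and base over lid ratios separated the groups. Full separation was seen for 32.8% of single tested genes, and these ratios were not tested. Alpha over beta ring was 1.21, 1.27 and 1.22 in the controls and 1.18, 1.17 and 1.16 with LYCAT shRNA, where PSMA7 gave 1081 to 1144 of the 2962 to 3066 summed alpha CPM of the controls. Without PSMA7 it was 0.767, 0.804 and 0.766, and 0.762, 0.758 and 0.752, still without overlap but with a narrower gap. Base over lid was 1.03, 1.07 and 1.06 in the controls and 1.09, 1.08 and 1.09 with LYCAT shRNA. Without PSMD2 it was 0.893, 0.921 and 0.924, and 0.928, 0.903 and 0.920, so the groups overlapped once that gene was left out. Per length, core RNA was more abundant than regulatory RNA: the median control level was 232 CPM per kilobase of the principal GENCODE v29 transcript for core genes and 80.9 for regulatory genes, and 98.7 and 40.4 when the merged exons of a gene were taken as its length. PSMA7 was the highest member on both scales, at 1122 and 639 CPM per kilobase. Which annotation was used for counting is not given, so these levels per length are approximate.

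**Figure D3:**
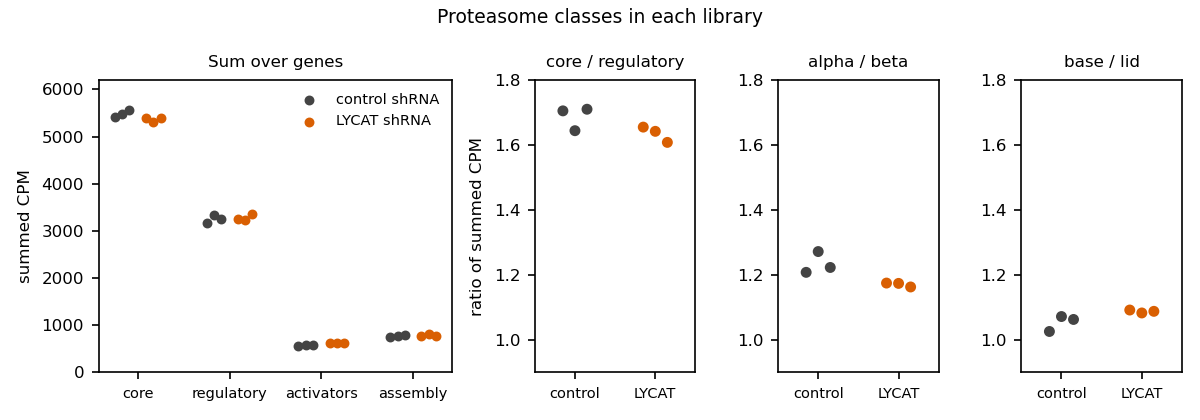
Left, summed CPM of the core particle, regulatory particle, activator and assembly chaperone genes in each library; right, ratios of summed CPM between classes in each library (ratio axes start at 0.9). Core over regulatory overlaps between the groups, while alpha over beta is 1.21 to 1.27 in the controls and 1.16 to 1.18 with LYCAT shRNA.

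Among the 4 activator genes 1 rose and 3 did not pass. PSME3, which encodes PA28 gamma, a nuclear cap that promotes degradation of some proteins without ubiquitin, had the largest rise of all members. It stood at 220.3, 216 and 229 CPM in the controls and at 284, 289 and 287 CPM with LYCAT shRNA. The spread within each group was small beside the gap between them. The mean went up 1.29-fold, from 222 ± 6.79 to 287 ± 2.70 CPM (SD, n = 3 each; log2 0.37, SE 0.0551, edgeR adjusted p = 1.52e-07). PSME3 shares exon positions with BECN1 on the other strand, an autophagy gene whose level was 135 and 145 CPM (log2 0.10, edgeR adjusted p = 0.314). PSME1 and PSME2, the interferon-inducible PA28 alpha and beta, did not pass. PSME1 was at 147, 146 and 145 CPM without and 135.5, 147 and 131 CPM with LYCAT shRNA (log2 -0.09, SE 0.0657, edgeR adjusted p = 0.373). PSME2 had a log2 fold change of -0.06, and PSME4, which encodes PA200, a nuclear cap, one of -0.04.

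Of the 7 genes of assembly chaperones 1 rose, 1 fell and 5 did not pass. So 28.6% changed, beside 19.1% of all tested genes and 28.7% of those with a control mean of at least 63.7 CPM. PSMD10, or gankyrin, a base chaperone also known as an oncoprotein that binds MDM2 and the retinoblastoma protein, stood at 63.2, 73.98 and 74.4 CPM in the controls and at 54.2, 56.1 and 55.6 CPM with LYCAT shRNA. Control replicate 1 was the lowest control and still lay above every LYCAT shRNA library. The mean fell 1.28-fold from 70.5 ± 6.32 to 55.3 ± 0.974 CPM (SD, n = 3 each; log2 -0.35, SE 0.0906, edgeR adjusted p = 0.00267), and 3 pseudogenes are named after it. PSMG4, a subunit of the chaperone pair that helps to build the alpha ring, stood at 56.8, 75.8 and 63.04 CPM without and 78.04, 76.8 and 80.1 CPM with LYCAT shRNA. Control replicate 2 came close to the LYCAT shRNA libraries (log2 0.26, SE 0.0885, edgeR adjusted p = 0.0272). PSMG4 did not pass with DESeq2 (adjusted p = 0.131), nor in edgeR when any single library except the second control was left out (0.0531 to 0.237). It shares exon positions on the other strand with SLC22A23 and with the tubulin gene TUBB2B, which was at 15.2 and 4.06 CPM (log2 -1.81, edgeR adjusted p = 0.342).

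PSMG2, a partner of PSMG1 in the other alpha ring chaperone, stood at 114, 94.04 and 111 CPM in the controls and at 89.7, 94.5 and 94.8 CPM with LYCAT shRNA. Control replicate 2 lay among the LYCAT shRNA libraries (log2 -0.19, SE 0.0767, edgeR adjusted p = 0.0664), and without it the gene passed (0.00408). Its partner PSMG1 had a log2 fold change of 0.09 with groups that did not overlap, and PSMG3, the partner of PSMG4, one of 0.14 (edgeR adjusted p = 0.330 and 0.0935). PSMG3 passed without control replicate 2 (edgeR adjusted p = 0.0240) and without LYCAT shRNA replicate 3 (0.0397). With DESeq2 the adjusted p was 0.227 for PSMG2 and 0.245 for PSMG3. Exon positions are also shared on the other strand by PSMD1 with HTR2B, PSMD13 with SIRT3 and PSME2 with RNF31. The same holds for PSME4 with ACYP2 and for PSMG2 with CEP76 and SPIRE1. PSMD9 shares exon positions with WDR66 on the same strand. The base chaperones PSMD5 and PSMD9 lay at 0.01 and -0.03. PSMC3IP, which only shares the symbol pattern, went from 33.7 ± 3.65 to 42.2 ± 3.95 CPM (SD, n = 3 each; log2 0.33, edgeR adjusted p = 0.0270); it overlaps MLX on the other strand and passed in 8 of 15 alternatives, DESeq2 not among them (adjusted p = 0.142).

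Genes that act with the proteasome were taken from a list of 30, of which 29 were tested: 4 rose, 1 fell and 24 did not pass (17.2% changed, where 19.1% of all tested genes did), with a median of 0.041. TXNL1, ZFAND5 and PSMF1 are described among those that changed.

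TXNL1, a thioredoxin-like protein bound to the lid, stood at 151.5, 168 and 165.5 CPM in the controls and at 187, 196 and 196 CPM with LYCAT shRNA (log2 0.25, SE 0.0617, edgeR adjusted p = 0.001415). ZFAND5, a zinc finger protein that activates the 26S proteasome, stood at 238, 233 and 238 CPM without and 269, 270.2 and 273 CPM with LYCAT shRNA (log2 0.20, SE 0.0548, edgeR adjusted p = 0.00597). In both genes each LYCAT shRNA library lay above each control; without control libraries 1 and 2 neither passed (edgeR adjusted p = 0.0553 and 0.0606), with log2 fold changes of 0.22 and 0.19 in that fit, which has 1 control. PSMF1, which encodes the proteasome inhibitor PI31, fell from 147, 169 and 161 CPM to 135, 135 and 145 CPM (log2 -0.20, SE 0.0658, edgeR adjusted p = 0.0219). It did not pass with DESeq2 (adjusted p = 0.101), nor in edgeR when the second or the third control, or the first or the second LYCAT shRNA library, was left out (0.0698 to 0.129). PSMF1 lies on chromosome 20, and of its 10 nearest tested genes in RefSeq's order 5 fell and 0 rose, with a median of -0.22. PSMA7 is on chromosome 20 too, and of the 10 genes around it 3 fell and 0 rose (median -0.18). The neighbours of PSMF1 and those of PSMA7 have no gene in common, and the part of chromosome position in these falls was not tested. Over all tested genes 9.26% fell and 9.81% rose. Around PSMD2, PSME3, PSMD10 and PSMG4, 0 or 1 of 10 neighbours fell and 1 or 2 rose.

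NFE2L1, the transcription factor that induces proteasome genes, did not pass: it was at 63.2, 63.6 and 57.4 CPM in the controls and at 52.7, 51.6 and 55.4 CPM with LYCAT shRNA. The groups did not overlap (log2 -0.21, SE 0.0929, edgeR adjusted p = 0.111). POMP, the maturation factor of the core, was at 528, 614 and 540.1 CPM without and 567, 594 and 573 CPM with LYCAT shRNA, within the spread of the controls (log2 0.04, SE 0.0491, edgeR adjusted p = 0.612). DDI2, the protease that activates the NFE2L1 protein, was under 1 CPM in every library and was not tested. SHFM1, a lid subunit, and ADRM1, a ubiquitin receptor of the base, whose symbols fall outside the rule, and the deubiquitinases UCHL5 and USP14, which bind the regulatory particle, lay between -0.06 and 0.04 on the log2 scale and did not pass. The segregase VCP and the shuttle proteins RAD23B, UBQLN1, UBQLN2 and UBQLN4 lay between -0.26 and 0.12, and none passed with edgeR; UBQLN1 stood at 415, 414 and 410.0 CPM without and 386, 385 and 378 CPM with LYCAT shRNA (log2 -0.11, edgeR adjusted p = 0.111).

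**Figure D4:**
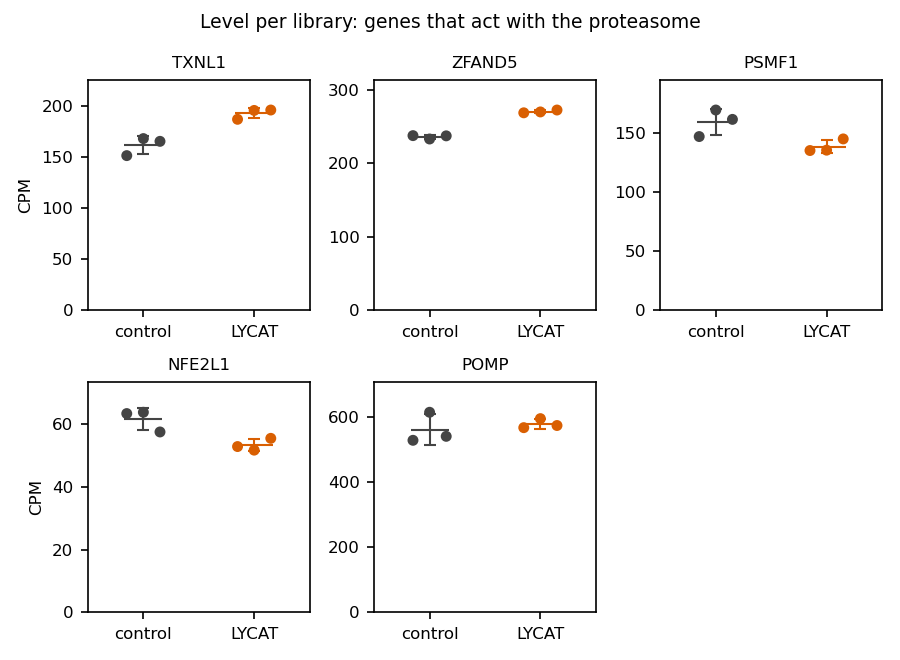
CPM in each library for TXNL1, ZFAND5 and PSMF1, which passed the test, and for NFE2L1 and POMP, with the mean and SD of each group (n = 3; y axes start at 0). TXNL1 and ZFAND5 are higher and PSMF1 lower with LYCAT shRNA without overlap; POMP overlaps.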

How the data were processed

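Expression was measured by RNA sequencing in 6 libraries of H2122 cells. The authors deposited 1 table of raw counts per gene symbol; featureCounts 1.5.1, Bowtie2, BWA 0.7.15 and bcl2fastq 2.17 and the builds hg19 and mm10 are named, per the submitters' processing notes. Which aligner and build made the table, and the use of strand, are not given in the sources used here. An array is mentioned in the labels' protocol, but the values are whole-number counts. Columns named CTRL and cycat, which reads as a misspelling of LYCAT, were assigned by name.

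Genes were filtered with filterByExpr by group (edgeR 4.0.16, R 4.3.3), which left 11097 genes with 99.77% of the counts, scaled by TMM, and tested with edgeR's quasi-likelihood F test (robust=TRUE) in a model of group alone. P-values were adjusted by Benjamini-Hochberg over all tested genes, with a threshold of 0.05. SE was the log2 fold change divided by the square root of F, and 95% intervals used the t quantile at the fit's degrees of freedom. CPM uses TMM-scaled totals of tested genes. A level of 3 counts is 0.608 to 0.967 CPM, far below the tested members. A chi-square test of counts gave 1.36 to 2.58 per degree of freedom for pairs within a group and 5.08 to 7.04 between groups; none was taken as a duplicate.

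The members and lists were chosen with earlier results of these data known. Genes described library by library were, per role, up to 4 changed members and the largest difference among the others, the 3 catalytic subunits, the changed partner genes (some are not reported here), NFE2L1 and POMP; PSMB1, PSMD14 and UBQLN1 were added after their values were seen. Genes with other values given in passing were named to account for every member, and those that share exon positions with members for their overlap in GENCODE v29. Alternatives were DESeq2 1.42.0 and its size factors, library totals, no filter, limma-voom (limma 3.58.1), a replicate block, loess offsets for GC content and length (available for 90.1% of tested genes), and leaving out each library; leaving out control libraries 1 and 2 was added after seeing the data. The edgeR, DESeq2 and limma-voom fits were tested on simulated data, with changes placed among all tested genes. Of 1.2-fold changes they recovered 22.4%, 11.9% and 20.9%, in that order, and of 1.5-fold changes 74.6%, 61.2% and 71.6%. False calls made up 5.6%, 2.11% and 6.67% of all calls. Protein sequences were not used here.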

Additional observations from a re-analysis of the deposited data

How the results depend on the processing

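Over the 15 alternatives with a model fit, PSMD2, PSME3 and PSMD10 passed in each, 29 of the 42 tested members passed in none, and 8 passed only under some alternative. Of the 37 members that did not pass, 17 changed sign in at least 1 alternative. Over all genes 1089 rose and 1028 fell; DESeq2 gave 635 and 558, and the fit without control replicates 1 and 2, which assumes that the lone control varies like the others, gave 578 and 553. That fit had 4 members lower, 2 core and 2 regulatory genes changed, and 2 partner genes higher and 0 lower. With library totals, or with GC and length offsets (with or without the replicate block), 4 members were lower, among them PSMB1 and PSMG2, and 2 core genes changed; with DESeq2 size factors 2 core genes changed. In the fits with library totals or the offsets 7 of 42 members passed (16.7%), where 18.3% to 19.1% of all genes did. DESeq2 called 4 of 42 members (9.52%), where it called 10.8% of all genes, and it called 0 partner genes lower. With the base chaperones PSMD5, PSMD9 and PSMD10 counted in the regulatory particle 2 of its genes changed, and without the lid its median was 0.030 and the core minus regulatory median -0.047, against -0.010. Leaving out 1 library at a time gave 744 to 1130 genes higher and 702 to 1097 lower, 2 to 6 members higher and 1 to 6 lower, 3 to 6 partner genes higher and 0 to 3 lower, 0 to 5 core and 1 to 2 regulatory genes changed, medians of -0.021 to -0.003 for the core and -0.006 to 0.023 for the regulatory particle, a difference of -0.042 to -0.015, and -1.575 to -1.397 for LCLAT1. No sign was seen that the replicate numbers pair the libraries. Deviations of same-numbered libraries correlated at 0.0055, -0.0719 and -0.0539, and 0 of 3 control libraries correlated best with its own number. With 3 libraries in a group this check cannot exclude a weak pairing. With the replicate block 2046 genes passed in place of 2117 and the same 5 members were called (PSMA7, PSMD2, PSME3, PSMD10 and PSMG4).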
